A study of Homo sapiens with 8 samples.

Results

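The nuclear-encoded subunits of respiratory chain complexes I to IV were examined in oral squamous cell carcinoma (OSCC) cells that had received a miR-375-3p mimic. Array symbols were first updated by RefSeq gene ID. Members were the genes whose single updated symbol started with NDUFA, NDUFB, NDUFC, NDUFS, NDUFV, UQCR, COX4I, COX5, COX6, COX7 or COX8. The SDH genes were added, and the NDUFAF assembly factors were left out. NDUFA4, now COXFA4, was therefore not a member, and its values are given at the end. The rule found 64 of the 18239 genes on the array, with 36 in complex I, 3 in complex II, 8 in complex III and 17 in complex IV. SDHB and UQCRFS1 were not analysed here, and none of the 11 subunits encoded in mitochondrial DNA was measured. Where a gene had several probe sets, the one that was brightest on average over the 8 arrays stood for it. In 23 of the 64 members, the probe set read was of a type that can bind related transcripts.

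The cells were SAS-L1, HSC2, HSC3 and Ca9-22, established lines grown from human OSCC. Cells of each line were transfected with 20 nM of the miR-375 mimic or with 20 nM of miR-NT, a non-targeting control mimic. RNA was taken after 48 h. The sample labels also state a transfection time, which was shorter than 48 h and the same for all 8 arrays. Of the 8 Affymetrix U219 arrays, 4 belonged to each condition, with 1 array per line and condition, so that the lines served as the replicates and no line had a repeat of its own. All cells of both conditions had been exposed to the transfection reagent, and the mimic is a synthetic RNA added from outside rather than miR-375-3p made by the cell. Signals are robust multichip average (RMA) values on the log2 scale, where a difference of 1 is a doubling. Signals of different probe sets were compared only for brightness, to choose a probe set and to sort genes into bright and dim. They are not read as relative amounts of RNA.

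The respiratory chain lies in the inner mitochondrial membrane. Complex I takes electrons from NADH, and complex II, which is also an enzyme of the tricarboxylic acid (TCA) cycle, takes them from succinate. Both hand the electrons to coenzyme Q, complex III passes them on to cytochrome c, and complex IV transfers them to oxygen. Complexes I, III and IV pump protons as they do so, complex II does not, and the proton gradient drives ATP synthase, also called complex V. Most subunits are encoded in the nucleus and imported, and each complex except complex II also holds subunits encoded in mitochondrial DNA.

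The sequence of the added miRNA is given first, because it defines the treatment. It is the mature human miR-375-3p of RefSeq (GRCh38.p14, chr2:219001648-219001669, minus strand), and the capitals mark the seed, bases 2 to 8, through which a miRNA chiefly recognizes its targets.
hsa-miR-375-3p: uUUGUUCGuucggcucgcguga

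Nuclear genes for respiratory chain subunits are known for promoters bound by NRF1, by the ETS factor GABPA (also called NRF2) and by YY1. RefSeq promoter windows of GRCh38.p14, from 250 bases before to 50 bases after the annotated start, were given for 54 of the 64 members. They were searched on both strands for GCGCATGC as the NRF1 letters, CCGGAAGT as the GABPA letters and AAGATGGC as the YY1 letters. The NRF1 letters occurred in 8 members, or 14.8% of those with a window, against 4.30% of 14492 array genes with a window. The GABPA letters occurred in 8 members as well, against 6.40% of all windows, and the YY1 letters in 7 members, or 13.0%, against 4.04%. At least 1 of the 3 motifs was present in 19 members, or 35.2%, and in 13.5% of all windows. The 4 members that held 2 different motifs are shown from 15 bases before the first match to 15 bases after the last, with the matches in capitals.
COX5B: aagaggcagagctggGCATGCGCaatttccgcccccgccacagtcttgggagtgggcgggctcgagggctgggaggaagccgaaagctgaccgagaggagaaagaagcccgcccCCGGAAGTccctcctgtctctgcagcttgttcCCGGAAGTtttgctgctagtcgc
NDUFA6: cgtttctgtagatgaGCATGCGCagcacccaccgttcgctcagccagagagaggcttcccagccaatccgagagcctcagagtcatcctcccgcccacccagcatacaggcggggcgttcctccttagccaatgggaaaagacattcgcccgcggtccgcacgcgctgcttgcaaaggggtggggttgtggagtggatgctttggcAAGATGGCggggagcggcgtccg
NDUFS7: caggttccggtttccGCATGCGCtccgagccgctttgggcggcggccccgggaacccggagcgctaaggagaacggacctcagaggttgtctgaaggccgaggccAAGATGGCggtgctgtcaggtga
SDHD: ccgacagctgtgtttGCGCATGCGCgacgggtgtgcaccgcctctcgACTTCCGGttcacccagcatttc

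The COX5B stretch is chr2:97645911-97646079 on the plus strand, with an NRF1 match at -136 and GABPA matches at -37 and -5 from the start. The NDUFA6 stretch is chr22:42090725-42090953 on the minus strand, with an NRF1 match at -166 and a YY1 match at 26. NDUFS7 is shown at chr19:1383819-1383946 on the plus strand, with an NRF1 match at -73 and a YY1 match at 18. In SDHD, at chr11:112086748-112086817 on the plus strand, NRF1 matches on both strands overlapped at -110 and -108, and a GABPA match began at -78. Among these 4 genes, COX5B, NDUFA6 and NDUFS7 rose with the mimic and SDHD fell. The NRF1 letters were found in 3 of the 25 members with a window that rose and in 4 of the 28 that did not pass the test. For the GABPA letters and for the YY1 letters the counts were 4 of 25 and 3 of 28. A match is a stretch of letters only, and binding was not measured.

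With the mimic, subunit transcripts of complexes I, III and IV were higher and a complex II transcript was lower. In the limma fit with the cell line as a block, 29 of the 64 members were higher at an adjusted p under 0.05 (adjusted over all 18239 genes), 1 was lower and 34 did not pass. Over all genes, 7.36% were higher and 5.19% were lower. The rises were small, from 1.18-fold to 1.45-fold, and all 29 were seen in each of the 4 lines. Complex I held 19 of them among 36 members, complex III held 5 of 8 and complex IV held 5 of 17. Complex II had none among 3, and its SDHD was the member that fell. Bulk RNA was measured, so less RNA of a gene per cell and fewer cells that express it cannot be told apart.

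The count of rises depended on the lines and on the scale. It was 11 without SAS-L1, 4 without HSC2, 9 without HSC3, 9 without Ca9-22 and 0 in a fit without the cell line as a block, in which 7 members were higher at an unadjusted p under 0.05. When each array's median was subtracted, which moved the median difference of all genes from 0.03 to -0.03, 15 members were higher and 2 lower, while 898 of all genes were higher and 1128 lower (against 1342 and 946).

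**Figure D1:**
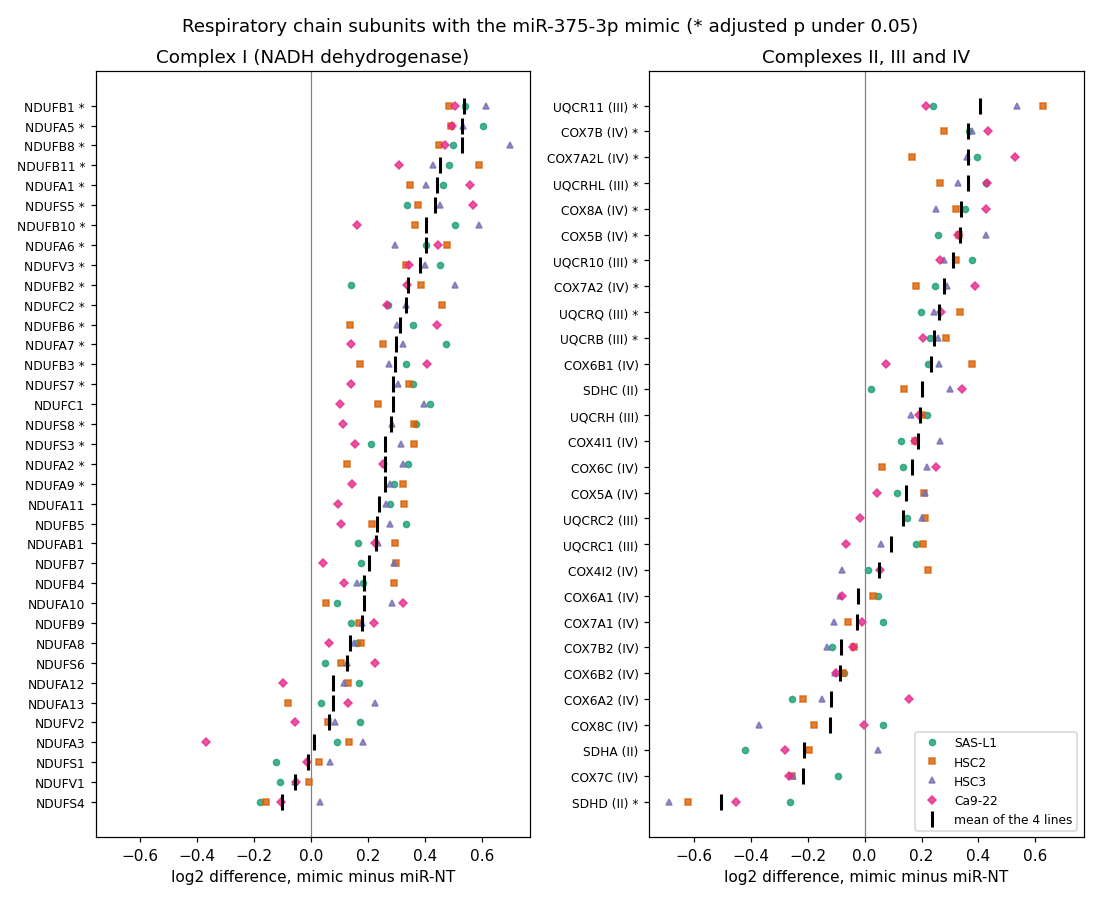
Difference between mimic and miR-NT on the log2 scale (x axis) for the 64 members, ordered by mean within complex I (left) and within complexes II to IV (right). Points are the 4 cell lines, the black bar is their mean, and an asterisk marks a limma adjusted p under 0.05. The 29 rises span 0.24 to 0.54, and SDHD stands alone among the marked genes on the left of 0.

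Most members carried bright signals, and genes in that range passed the test more often than the average gene. Mean signals of members ranged from 3.41 to 11.8 with a median of 9.86, whereas the median of all genes was 5.56. Among the 1311 genes with a mean signal from 9 to 11, 15.4% were higher and 12.3% lower with the mimic. Of the 38 members in that range, 19 were higher and 0 lower. Their median difference was 0.25, and that of all genes in the range was 0.05.

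The direction was shared across lines. Of the 64 members, 55, 53, 54 and 48 had a difference above 0 for SAS-L1, HSC2, HSC3 and Ca9-22, in that order. Over the 18239 genes the counts in the same order were 9543, 9838, 10444 and 11236. All 4 lines were higher for 45 members and all 4 were lower for 5, namely SDHD, COX7C, NDUFV1, COX6B2 and COX7B2. Over all genes, 3821 were higher and 2163 lower in all 4 lines.

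Complex I is built from core subunits that carry out electron transfer and proton pumping, and from many accessory subunits around them. The median difference of its 36 members was 0.26, with medians of 0.28, 0.29, 0.29 and 0.16 for SAS-L1, HSC2, HSC3 and Ca9-22. The 6 largest rises of all members belonged to this complex, and each of those genes encodes an accessory subunit.

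NDUFB1, a small subunit of the membrane arm, had signals with miR-NT and with the mimic of 9.69 and 10.23 in SAS-L1, 9.55 and 10.03 in HSC2, 10.18 and 10.79 in HSC3, and 9.24 and 9.75 in Ca9-22. Its levels were highest in HSC3 and lowest in Ca9-22 under both conditions, so the groups overlapped although every line rose by a similar amount. The mean difference was 0.54 ± 0.06 (SD, n = 4 lines), or 1.45-fold, with an adjusted p of 0.00634. NDUFA5, an accessory subunit of the arm that reaches into the matrix, went from 8.84 to 9.44 in SAS-L1, from 8.68 to 9.17 in HSC2, from 8.60 to 9.13 in HSC3 and from 8.71 to 9.21 in Ca9-22. Here every mimic array lay above every miR-NT array, and the mean difference was 0.53 ± 0.05 with an adjusted p of 0.00634. NDUFA5 was read from its only probe set, which is of a type that can bind related transcripts.

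NDUFB8, another subunit of the membrane arm, rose from 10.11 to 10.61 in SAS-L1, from 9.84 to 10.29 in HSC2, from 10.04 to 10.74 in HSC3 and from 9.61 to 10.08 in Ca9-22. HSC3 showed the largest step, and the mimic array of Ca9-22 stayed below the miR-NT array of SAS-L1. The mean difference of NDUFB8 was 0.53 ± 0.11 (adjusted p = 0.00840). For NDUFB11, which also sits in the membrane arm, the arrays gave 9.08 and 9.56 in SAS-L1, 8.09 and 8.68 in HSC2, 8.89 and 9.32 in HSC3, and 9.17 and 9.48 in Ca9-22. HSC2 was the low line in both conditions and had the largest rise. NDUFB11 differed by 0.45 ± 0.12 on average (adjusted p = 0.0126). Its 2 probe sets are of types that can bind related transcripts.

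NDUFA1, an X-linked accessory subunit, was measured at 10.30 and 10.77 in SAS-L1, 10.49 and 10.84 in HSC2, 11.15 and 11.55 in HSC3, and 10.97 and 11.53 in Ca9-22. HSC3 and Ca9-22 were high in both conditions. The mean difference was 0.44 ± 0.09 (adjusted p = 0.0111), and the other 2 of its 3 probe sets differed by 0.43 and 0.50. NDUFS5, which faces the intermembrane space, went from 9.89 to 10.22 in SAS-L1, from 10.27 to 10.64 in HSC2, from 10.59 to 11.04 in HSC3 and from 10.03 to 10.60 in Ca9-22. All lines rose, Ca9-22 the most and SAS-L1 the least, with a mean of 0.43 ± 0.10 (adjusted p = 0.0125). That call came from a probe set of a type that can bind related transcripts, and the other NDUFS5 probe set, with a mean signal of 4.30, differed by -0.03.

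**Figure D2:**
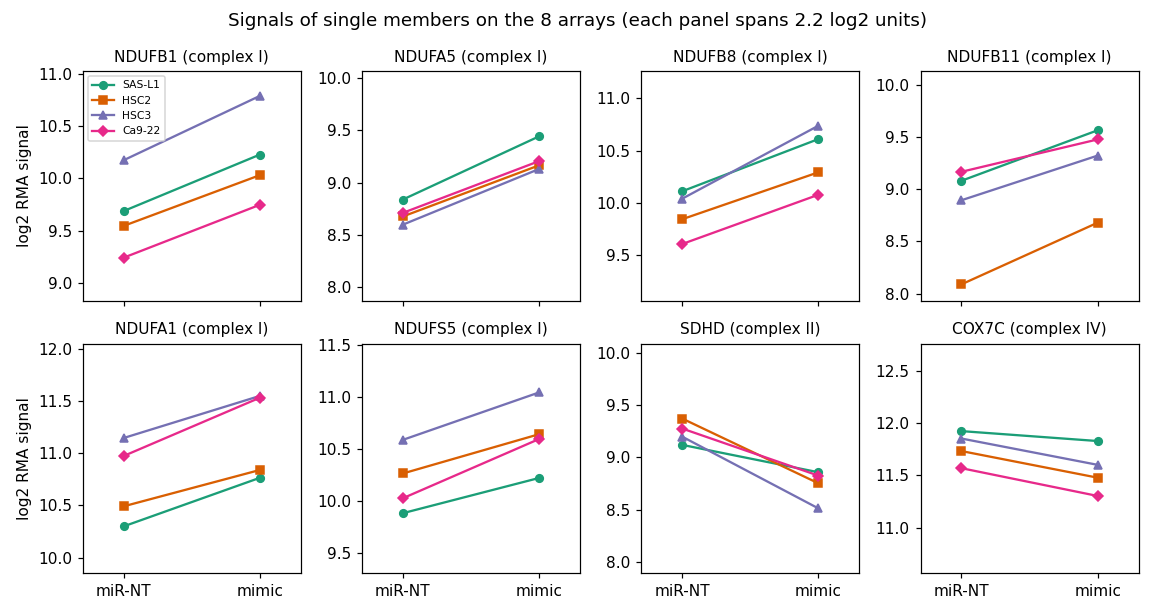
Log2 RMA signal (y axis, with the same span in each panel) with miR-NT and with the mimic for 8 members, with a colored line for each cell line. The 6 largest rises run upward in parallel in all lines, while SDHD and COX7C run downward.

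The remaining 13 rises in complex I were 0.40 in NDUFB10 and NDUFA6, 0.38 in NDUFV3, 0.34 in NDUFB2, 0.33 in NDUFC2, 0.31 in NDUFB6, 0.30 in NDUFA7 and NDUFB3, 0.29 in NDUFS7, 0.28 in NDUFS8 and 0.26 in NDUFS3, NDUFA2 and NDUFA9. NDUFA6 and NDUFV3 lost the call in 1 of the 4 fits that left out a line, and NDUFB10 and NDUFB2 in 3. The others lost it whichever line was left out. NDUFC2 had dimmer probe sets that rose further, by 0.72 and 0.86. By name group, the NDUFB genes were the most uniform: all 11 were higher in all 4 lines, 7 passed the test, and their median in each line lay between 0.30 and 0.33. Among the NDUFA genes 6 of 13 passed, among the NDUFS genes 4 of 7, among the NDUFC genes 1 of 2 and among the NDUFV genes 1 of 3.

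The core subunits described here were 6 genes. NDUFS3, NDUFS7 and NDUFS8, which form the stretch that leads electrons towards coenzyme Q, rose, with limma adjusted p of 0.0482, 0.0379 and 0.0478. Each of these calls was lost whichever line was left out. They were also lost when each array's median was subtracted and when the probe sets of a gene were averaged. NDUFV1, which holds the NADH-binding flavin, differed by -0.06 ± 0.04, its partner NDUFV2 by 0.06 ± 0.09, and NDUFS1, the largest iron-sulfur subunit, by -0.01 ± 0.08, and none of these passed. The median of the 6 core subunits was 0.16, and that of the 30 accessory subunits, 16 of which rose, was 0.27. The difference between these medians was not tested. The other complex I members that did not pass ranged from -0.10 in NDUFS4 to 0.29 in NDUFC1, whose adjusted p was 0.0583.

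Complex II is the only complex whose subunits are all encoded in the nucleus. SDHD, which with SDHC anchors the enzyme in the membrane and binds coenzyme Q, went from 9.12 to 8.86 in SAS-L1, from 9.37 to 8.75 in HSC2, from 9.20 to 8.51 in HSC3 and from 9.28 to 8.82 in Ca9-22. Every mimic array lay below every miR-NT array, and SAS-L1 showed the smallest step. The mean difference was -0.51 ± 0.19 (SD, n = 4 lines), so that miR-NT was 1.42-fold above the mimic, with an adjusted p of 0.0174. The 5 probe sets of SDHD all passed as lower when every probe set was tested, with differences from -0.51 to -0.86, and all 5 are of types that can bind related transcripts. SDHD passed without SAS-L1 but not without HSC2, HSC3 or Ca9-22.

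SDHA, the flavin-bearing catalytic subunit, gave 9.72 and 9.30 in SAS-L1, 9.08 and 8.88 in HSC2, 8.65 and 8.70 in HSC3, and 8.64 and 8.36 in Ca9-22. It was lower in 3 lines and not in HSC3, and its mean of -0.21 ± 0.20 did not pass (adjusted p = 0.189). SDHC, the other anchor, went the opposite way to SDHD, from 9.60 to 9.63 in SAS-L1, from 9.44 to 9.58 in HSC2, from 9.67 to 9.97 in HSC3 and from 9.44 to 9.78 in Ca9-22. Its mean difference of 0.20 ± 0.15 did not pass (adjusted p = 0.148), although 1 of its 5 probe sets did, with 0.31. The median of the 3 complex II genes was -0.21. All 3 were read from probe sets that can bind related transcripts, and without such probe sets the median, then over SDHA and SDHC alone, was 0.074. That value rests on dimmer probe sets. The one of SDHA, with a mean signal of 3.49, differed by -0.14, and the one of SDHC, at 6.27, by 0.29.

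**Figure D3:**
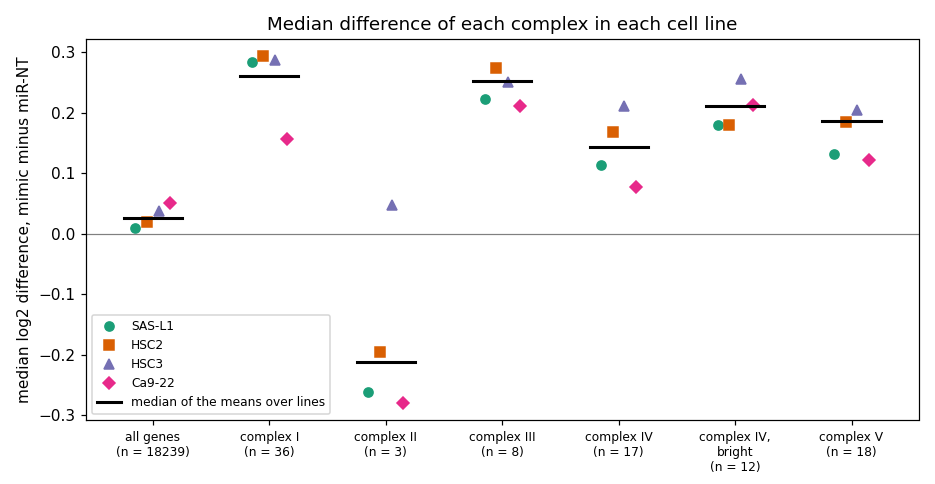
Median difference between mimic and miR-NT on the log2 scale (y axis) over the genes of each complex, for each cell line (points) and for the means over lines (black bars), beside all genes and complex V. Complexes I and III lie at or above 0.16 in every line, whereas complex II, with 3 genes, lies below 0 in all lines except HSC3.

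In complex III, which carries electrons from coenzyme Q to cytochrome c, the median difference was 0.25, with 0.22, 0.27, 0.25 and 0.21 for SAS-L1, HSC2, HSC3 and Ca9-22. The 5 genes that rose encode small subunits. UQCR11 was measured at 9.32 and 9.56 in SAS-L1, 8.21 and 8.84 in HSC2, 9.24 and 9.78 in HSC3, and 9.05 and 9.26 in Ca9-22. HSC2 was the low line and moved the most, and the mean was 0.40 ± 0.21 (adjusted p = 0.0373). The other UQCR11 probe set, with a mean signal of 6.62, differed by 0.06 and did not pass, and UQCR11 was not called when its probe sets were averaged. The other rises were 0.36 in UQCRHL, 0.31 in UQCR10, 0.26 in UQCRQ and 0.24 in UQCRB, which takes part in binding coenzyme Q. The dimmer UQCRQ probe sets, with mean signals of 4.78 and 3.74, differed by -0.07 and 0.04. Like UQCR11, UQCRQ was not called when its probe sets were averaged. All 5 calls in this complex were lost whichever line was left out. UQCRHL is a near copy of UQCRH, the hinge protein, and probes could take up signal from both. UQCRH itself differed by 0.19 ± 0.02 and did not pass (adjusted p = 0.0740). The large core proteins UQCRC1 and UQCRC2 differed by 0.09 ± 0.12 and 0.14 ± 0.11, and Ca9-22 was below 0 for both.

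Complex IV, cytochrome c oxidase, had a median of 0.14, with 0.11, 0.17, 0.21 and 0.08 for SAS-L1, HSC2, HSC3 and Ca9-22. Adding COXFA4, a complex IV subunit, and its relative COXFA4L2, whose current symbols lie outside the rule, gave a median of 0.052. That median is the value of COX4I2, a dim gene with a mean signal of 4.41. COXFA4L2 was dim too, at 4.08, so the shift partly reflects genes with little signal. COX7B rose from 10.79 to 11.15 in SAS-L1, from 10.99 to 11.27 in HSC2, from 11.16 to 11.54 in HSC3 and from 10.60 to 11.03 in Ca9-22. All lines moved by similar amounts around a mean of 0.36 ± 0.06 (adjusted p = 0.0154). COX7A2L, which takes part in joining complexes III and IV into supercomplexes, differed by 0.36, COX8A and COX5B each by 0.34, and COX7A2 by 0.28, and these 4 rose as well. The calls of COX7A2L and COX7A2 were lost whichever line was left out. Those of COX7B, COX8A and COX5B were lost in 3 of the 4 fits that left out a line. COX7C, a small subunit found in all tissues, gave 11.92 and 11.83 in SAS-L1, 11.73 and 11.48 in HSC2, 11.85 and 11.60 in HSC3, and 11.57 and 11.30 in Ca9-22. It was lower in every line, its groups overlapped, and its mean of -0.22 ± 0.08 did not pass (adjusted p = 0.0728).

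Several complex IV subunits exist as a widespread isoform and an isoform restricted to some tissues. Of the widespread ones, COX4I1 was measured at 10.39 and 10.52 in SAS-L1, 10.71 and 10.89 in HSC2, 10.28 and 10.55 in HSC3, and 10.86 and 11.04 in Ca9-22, with a mean difference of 0.19 ± 0.06 (adjusted p = 0.0930). COX6A1 gave 11.86 and 11.91 in SAS-L1, 11.49 and 11.52 in HSC2, 12.02 and 11.93 in HSC3, and 11.94 and 11.87 in Ca9-22. Its lines did not move the same way, with a mean of -0.02 ± 0.07. For COX6B1 the values were 10.21 and 10.44 in SAS-L1, 10.20 and 10.58 in HSC2, 10.30 and 10.56 in HSC3, and 10.58 and 10.65 in Ca9-22, with a mean of 0.23 ± 0.12 (adjusted p = 0.0814). COX8A went from 11.09 to 11.45 in SAS-L1, from 11.31 to 11.63 in HSC2, from 11.69 to 11.95 in HSC3 and from 11.003 to 11.43 in Ca9-22, and was higher in all lines. COX7A2 went from 11.14 to 11.39 in SAS-L1, from 11.53 to 11.72 in HSC2, from 11.29 to 11.58 in HSC3 and from 11.42 to 11.80 in Ca9-22, likewise higher in all lines.

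Of the 6 restricted isoforms, 5 had mean signals below the median of all genes, and COX6B2, at 5.63, lay just above it. COX4I2, known from lung, ranged from 4.34 to 4.42 with miR-NT and from 4.34 to 4.56 with the mimic. COX6A2, a heart and muscle isoform, ranged from 3.84 to 4.23 and from 3.96 to 4.01, and COX7A1, also of heart and muscle, from 3.39 to 3.47 and from 3.35 to 3.46. These ranges touched or overlapped in each case. COX6B2, COX7B2 and COX8C, known from testis, had ranges of 5.59 to 5.74, 3.42 to 3.47 and 3.37 to 3.57 with miR-NT and of 5.52 to 5.66, 3.31 to 3.43 and 3.20 to 3.44 with the mimic. None of the 6 passed the test. NDUFA13 of complex I was dim as well, from 3.36 to 3.64 and from 3.52 to 3.77, and 3 further probe sets, which the annotation gives NDUFA13 together with another symbol, were left out. Among the 12 complex IV members at or above the median signal of all genes, the median difference was 0.21, with 0.18 in SAS-L1, the same in HSC2, 0.26 in HSC3 and 0.21 in Ca9-22 cells.

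Many members also differed between the 4 lines, as did most genes of like brightness. By the limma F-test over the lines, 44 of the 64 passed, with 28 in complex I, 1 in complex II, 6 in complex III and 9 in complex IV. Over all genes 42.7% passed. Of the genes with a mean signal from 9 to 11, 78.2% passed, and 27 of the 38 members in that range did, a share no higher. Averaged over both conditions, 25 members were highest in HSC3, 16 in SAS-L1, 12 in Ca9-22 and 11 in HSC2, and 24 were lowest in HSC2, 17 in Ca9-22, 15 in SAS-L1 and 8 in HSC3. Over all genes, HSC3 was highest for 3324, SAS-L1 for 4463, HSC2 for 4769 and Ca9-22 for 5683, and the lowest line was HSC3 for 6191, SAS-L1 for 4569, HSC2 for 3958 and Ca9-22 for 3521.

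The 4 members with the smallest p between lines were NDUFV3, NDUFA6, UQCRB and NDUFS4. NDUFV3, an accessory subunit near the NADH site, gave 7.33 and 7.79 in SAS-L1, 6.21 and 6.54 in HSC2, 7.61 and 8.01 in HSC3, and 7.50 and 7.85 in Ca9-22. HSC2 lay below the other lines in both conditions (adjusted p between lines = 0.000262). NDUFA6 gave 8.75 and 9.15 in SAS-L1, 10.28 and 10.76 in HSC2, 9.75 and 10.04 in HSC3, and 9.83 and 10.28 in Ca9-22. SAS-L1 was low and HSC2 high, while the miR-NT arrays of HSC3 and Ca9-22 lay close together (adjusted p between lines = 0.000312).

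UQCRB gave 10.61 and 10.84 in SAS-L1, 10.32 and 10.60 in HSC2, 10.54 and 10.80 in HSC3, and 9.40 and 9.61 in Ca9-22. Ca9-22 stood below the other lines, which lay between 10.32 and 10.61 with miR-NT (adjusted p between lines = 0.000379). NDUFS4, an accessory subunit whose loss in people causes Leigh syndrome, gave 10.13 and 9.95 in SAS-L1, 9.14 and 8.98 in HSC2, 10.04 and 10.07 in HSC3, and 8.94 and 8.84 in Ca9-22. The lines fell into a high pair, SAS-L1 and HSC3, and a low pair, HSC2 and Ca9-22 (adjusted p between lines = 0.000429). With the mimic NDUFS4 differed by -0.10 ± 0.09 and did not pass.

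**Figure D4:**
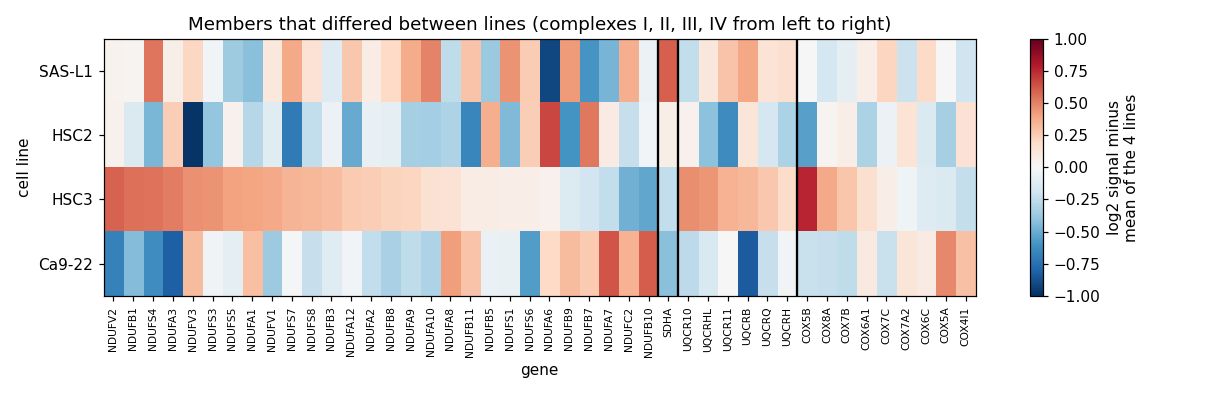
Level of the 44 members that passed the test between lines (x axis, complexes I to IV separated by black lines) in each cell line (y axis), as the log2 signal averaged over both conditions minus the mean of the 4 lines (color scale). Red cells are above and blue cells below the mean, and HSC3 is red for most complex I members on the left.

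Genes that work with the respiratory chain were read from the same fit, with the 7.36% higher and 5.19% lower of all genes as the background. Of 18 ATP synthase genes, 4 (22.2%) were higher and 0 lower, with a median of 0.19. These genes are bright: 11 had a mean signal from 9 to 11, and the 4 rises were among them. Of all genes in that range, 15.4% were higher. ATP5MJ, a small membrane subunit, went from 10.47 to 10.85 in SAS-L1, from 9.57 to 10.13 in HSC2, from 10.03 to 10.37 in HSC3 and from 9.99 to 10.53 in Ca9-22, a mean of 0.45 ± 0.11 (adjusted p = 0.0119). ATP5PD, of the peripheral stalk, rose by 0.30, ATP5PF by 0.28 and ATP5MK by 0.26. All 4 rose in each line.

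Among 44 measured assembly factors of complexes I to IV, 6 (13.6%) were higher and 5 (11.4%) lower, with a median of 0.14. These shares are near those of genes with a mean signal from 7 to 8, of which 15.5% were higher and 11.4% lower. COX20, a chaperone for the mitochondrially encoded subunit 2 of complex IV, fell from 8.14 to 7.05 in SAS-L1, from 8.35 to 6.11 in HSC2, from 8.56 to 6.64 in HSC3 and from 7.76 to 5.67 in Ca9-22. Its mean difference was -1.84 ± 0.52 (adjusted p = 0.00560), so that miR-NT was 3.57-fold above the mimic. LRPPRC, which stabilizes mitochondrial mRNAs, fell by 0.41, and NUBPL, SCO1 and COA7 fell too. ECSIT, a complex I assembly factor, rose by 0.60, COX14 rose by 0.57, and COA5, SDHAF2, UQCC2 and NDUFAF5 were the other rises.

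Of 12 regulators of mitochondrial gene expression, 0 were higher and 2 lower, with a median of -0.04. TFAM, which packs and transcribes mitochondrial DNA, went from 9.12 to 8.41 in SAS-L1, from 8.34 to 7.51 in HSC2, from 8.92 to 7.48 in HSC3 and from 9.13 to 7.81 in Ca9-22, a mean of -1.08 ± 0.36 (adjusted p = 0.00838). GABPA, whose letters were searched in the promoters above, went from 6.91 to 6.55 in SAS-L1, from 6.83 to 6.32 in HSC2, from 6.70 to 6.01 in HSC3 and from 7.71 to 6.92 in Ca9-22, a mean of -0.59 ± 0.19 (adjusted p = 0.0115). Both were lower in all lines, by more in HSC3 and Ca9-22 than in SAS-L1 and HSC2.

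Among 12 measured TCA cycle genes, 1 was higher and 1 lower (8.33% each, near the background), with a median of 0.08, and both belong to succinyl-CoA ligase, whose product succinate is the substrate of complex II. SUCLG2, its GTP-specific beta subunit, went from 7.05 to 6.13 in SAS-L1, from 6.99 to 6.20 in HSC2, from 7.53 to 6.70 in HSC3 and from 7.23 to 6.34 in Ca9-22, a mean of -0.86 ± 0.06 (adjusted p = 0.00341). SUCLG1, the alpha subunit, rose by 0.24 ± 0.06 (adjusted p = 0.0495). In coenzyme Q synthesis, 1 of 11 genes was higher and 1 lower (9.09% each, also near the background), with a median of 0.09: PDSS2, which builds the side chain, rose by 0.55 ± 0.10 and COQ5, a methyltransferase, fell by 0.65 (SD 0.32). The carriers did not pass. Cytochrome c, CYCS, differed by -0.46 ± 0.29 (adjusted p = 0.0526) and was lower in all lines, and cytochrome c1, CYC1, differed by 0.14 ± 0.09.

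**Figure D5:**
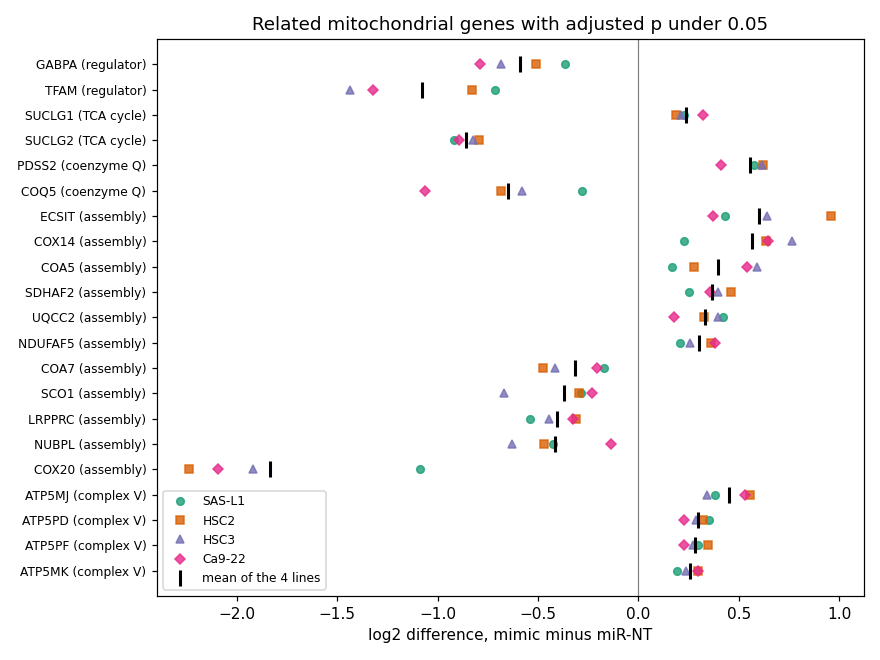
Difference between mimic and miR-NT on the log2 scale (x axis) for the related mitochondrial genes with a limma adjusted p under 0.05, with a point for each cell line and a black bar for the mean. COX20 and TFAM lie farthest to the left, and the 4 complex V genes at the bottom lie to the right of 0 in all lines.

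The arrays were checked for squamous and other cells. Of 8 squamous epithelium markers 6 were measured, and KRT5 and SFN passed as lower with the mimic. KRT5 fell by 1.73 (SD 1.04) and SFN fell by 0.43 (SD 0.20). KRT14, CDH1, DSP and PKP1 did not pass, with mean differences of -0.94, -0.001, -0.13 and -0.16. KRT14 was dim in SAS-L1 and Ca9-22, from 4.05 to 4.61, and bright in HSC2 and HSC3, from 8.12 to 11.28. None of 6 fibroblast markers and none of 6 measured immune and endothelial markers passed, with medians of -0.01 for both lists. The part of the falls of KRT5 and SFN in the differences of respiratory chain genes was not tested.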

How the data were processed

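The log2 signals were deposited by the authors after RMA, in which background is corrected, all arrays are given a common distribution and the probes within each probe set are combined. GeneSpring GX is the software in the paper's methods. For labeling, those methods state a GeneChip 3′ IVT PLUS kit, whereas GeneAtlas 3′ IVT Express is stated in the labels. Scanner files were not used here. The table held 49386 probe sets, of which 45259 had a single symbol. Symbols came from the platform annotation, updated by RefSeq gene ID (GRCh38.p14), which matched 45178 of them. Array medians lay between 4.96 and 5.00, and the number of arrays limits the precision.

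Mimic and miR-NT were compared with limma 3.58.1 under R 4.3.3. The linear model held the condition and the cell line (as a block), variances were moderated by eBayes, and p-values were adjusted by Benjamini-Hochberg across all 18239 genes, with 0.05 as the threshold. Lines were compared by the F-test of their coefficients in that fit. The line pairs the arrays by design: deviations of a line's arrays from the condition means correlated across genes at 0.836 to 0.886, and at -0.107 or lower between lines. Subtracting the mean of the same 4 lines makes the correlations between lines negative on average. The values between lines are therefore no measure of the pairing. For the mimic, p-values measure the spread of the difference between 4 different lines. For the F-test, the error is the spread between both arrays of a line after the mean effect of the condition. No repeats of a line entered it. Complexes and gene lists are described by counts and medians. The fit was tested on simulated data.

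The named genes were the 6 largest falls and rises that passed and moved alike in all 4 lines, the SDH genes, the isoform pairs, the 4 members with the smallest p between lines and up to 2 genes per list. COX7C, UQCR11, COX7B and further genes of the lists were named after their values were seen. The members, lists and tests were chosen with earlier results of these data known. Promoter and miRNA sequences are those of RefSeq (GRCh38.p14). Alternatives were another normalization, other rules for probe sets, a filter on dim genes, other tests and leaving out each line.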

Additional observations from a re-analysis of the deposited data

Results flagged for a closer look

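In 2 of the 64 members, 1 line lay far from the other lines by Dixon's ratio over the 4 differences, a rule that chance meets in about 1 of 20 genes. NDUFA3, an accessory subunit of complex I, differed by 0.09, 0.13, 0.18 and -0.37 for SAS-L1, HSC2, HSC3 and Ca9-22. The brightest 3 of its 4 probe sets showed the low value in Ca9-22, and the dim one did not. COX7C of complex IV differed by -0.095, -0.25, -0.25 and -0.27 for SAS-L1, HSC2, HSC3 and Ca9-22, read from its only probe set.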

How the results depend on the processing

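Of the 64 members, 29 were higher and 1 lower with the mimic. Without the cell line as a block, which is the fit without the pairing, 0 were higher and 0 lower by limma, with 7 and 1 at an unadjusted p under 0.05. The methods' t-test gave 0 and 0 after adjustment (6 and 2 unadjusted), the paired t-test 0 and 0 (43 and 4 unadjusted), and a further demand for a 1.5-fold change left 0 and 0. Leaving out each line in turn gave 4 to 11 higher and 0 to 1 lower. Subtracting each array's median gave 15 higher and 2 lower, with medians of 0.18 for all members, 0.20 for complex III and 0.089 for complex IV (from 0.14). Averaging all probe sets per gene gave 26 higher and 2 lower, with 0.20 for complex III, and a trended robust variance gave 25 and 2. In these 3 settings the second lower member was COX7C. The median of complex IV was 0.21 with dim genes left out, 0.21 over its members at or above the median signal, and 0.052 with COXFA4 and COXFA4L2 added. The value of 0.052 is that of the dim COX4I2, and COXFA4L2 was dim as well. Without probe sets that can bind related transcripts, an alternative chosen after seeing the data, 57 members could be tested, and 21 were higher and 0 lower. SDHD, NDUFA5 and NDUFB11 had no other probe set. The complex II median turned to 0.074, read from dimmer probe sets of SDHA (mean signal 3.49) and SDHC (6.27). NDUFS5 turned to -0.027, also from a dim probe set. Quantile normalization gave 26 and 1, cyclic loess 23 and 1, any probe set of a member 26 and 1, and subtracting the medians of genes with signals from 9 to 11, also added later, 28 and 1. The count between lines, 44, stayed between 34 and 46. Among the members named by the rule, 4 of the 6 largest rises (NDUFB1, NDUFA5, NDUFB8 and NDUFA1) passed whichever line was left out. Counting NDUFA4 by its prefix was not run, because the updated symbol, COXFA4, is outside the rule.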

Other observations

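COXFA4 and its relatives, formerly NDUFA4 and relatives, lay outside the rule by their current symbols. COXFA4, a subunit of complex IV once assigned to complex I, went from 10.66 to 10.53 in SAS-L1, from 10.87 to 10.52 in HSC2, from 11.33 to 10.98 in HSC3 and from 9.82 to 8.92 in Ca9-22. It was lower in every line, by the most in Ca9-22, and its mean of -0.43 ± 0.33 (SD, n = 4 lines) did not pass in limma (adjusted p = 0.0776). COXFA4L2 was dim, with miR-NT signals from 3.97 to 4.17, and differed by 0.03 ± 0.12. COXFA4L3 gave 8.17 and 7.46 in SAS-L1 but lay between 3.87 and 4.09 in the other lines, which passed the test between lines (limma adjusted p = 0.000156).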
